A study of Homo sapiens with 26 samples.

Results

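Genes for translation factors, RNA helicases, splicing factors, ribosomal proteins and RNA decay factors were followed through 6 deposited lists of regions linked to EZH2, the enzyme of the PRC2 complex that methylates histone H3. They were chosen by symbol, with the prefixes EIF, EEF, PABP, HNRNP, SRSF, SRRM, SF3A, SF3B, PRPF, DDX, DHX, RBM, THOC, CNOT, XRN, RPL and RPS, and 140 of the 4083 gene symbols in the lists fit. The prefixes catch more than the name of the set says. Of the 140, 24 are pseudogenes and 4 are kinases that share a prefix with another family (EIF2AK1, EIF2AK3, EIF2AK4 and RPS6KA4), which leaves 112.

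The study sequenced RNA that co-precipitated with EZH2, beside IgG precipitates and input, in 3 established cell lines, and its title names mispriming of the reverse transcription primer as a source of false signal. Small RNA libraries came from K562, a chronic myeloid leukaemia line (3 libraries, 1 each of EZH2, IgG and input), and from the glioblastoma lines T98G and U87MG (6 libraries each, 2 of each kind). T98G also has long RNA libraries and 1 EZH2 iCLIP library, in which crosslinked RNA is read up to the crosslink, and U87MG has polyadenylated RNA after siRNA against EZH2 or against GFP, with 2 libraries per arm. The labels name no genetic change in these lines, and all groups but the siRNA arms are untreated as far as the labels say. The lists are the authors' calls of exons (3 small RNA lists), full-length RNA targets (T98G), retained introns (U87MG) and genes changed by the siRNA (U87MG). The intron list is named as introns proximal to EZH2 seRNAs, read here as the small RNA exons. They hold no values for single libraries, so the depth behind a call is unknown and no value below has a replicate error. Intervals are 95% Wilson intervals, which cover counting error only. Exons of 1 gene and copies of 1 pseudogene family are not independent of each other.

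As background, translation begins when initiation factors bring the ribosome and the initiator tRNA to an mRNA, and elongation factors then carry the ribosome along it. Splicing removes introns through the spliceosome, in which the SF3A and SF3B proteins belong to the U2 particle that recognises the branch point, PRPF proteins build and run the central particle, and SR proteins and hnRNPs steer the choice of splice sites. DDX and DHX proteins are helicases that unwind RNA or remodel its proteins. The THO complex links transcription to mRNA export, the CCR4-NOT complex shortens poly(A) tails, and XRN exonucleases degrade RNA from its 5′ end. Transcripts of many of these genes are abundant in dividing cells.

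The sequences at the called exons are shown first, because the T98G list holds a number from which a peak position can be read at single bases. What that number means is not stated. It was read here as a signed distance, so that the exon middle minus the number is the peak middle, and every base position below rests on that reading and its sign. With the opposite sign, the share of peaks with AGAT at bases 11 to 15 given below would be 3.28% in place of 30.3%. The sign was chosen from the sequence itself, so this contrast is no independent finding. Base 1 is the first base downstream of the middle on the RNA strand. So placed, 3 of the 122 middles lie outside the ends of the listed exon, by at most 8 bases. Over all T98G peaks 103 of 2463 do, by at most 25 bases. The opposite sign would give the same counts, because the distance is taken from the exon middle. Windows run from 5 bases before the middle to 25 bases after it, 5′ to 3′, read from GRCh37 (hg19). Capitals mark AGAT, or any 5 or more bases in a row that match the first 12 bases of the 3′ adapter of the NEB small RNA kit, where the match starts at base 8 or later. That adapter begins AGATCGG and goes on with GGAAGAG, sharing the pair GG. It is known from general use of the kit and not from the labels. The first set holds 6 of the 7 peaks of these genes in which AGATCG, the first 6 adapter bases, starts at bases 11 to 15.
SF3B1, exon 8 of 25, chr2:198273248-198273277, minus strand: tgagactcctcgaacAGATCGaggtggaga
PRPF6, exon 16 of 21, chr20:62658441-62658470, plus strand: ggatgatgaaggggcAGATCGaggagcaga
RBM23, exon 8 of 14, chr14:23374419-23374448, minus strand: atgtacgtatcatctcAGATCGGAActcac
HNRNPL, exon 5 of 13, chr19:39334651-39334680, minus strand: ggctgttgcactctGAAGATCGaatacgca
PRPF31, exon 4 of 14, chr19:54625287-54625316, plus strand: ccaacaacctgaccgtggAGATCGaaaacg
SF3A1, exon 6 of 16, chr22:30738238-30738267, minus strand: gagcgggtggcctatgctcAGATCGactgg
The second set holds peaks with the later part of the adapter, GGAAGAG or GGAAG, or with only AGAT. Apart from HNRNPK, PABPC4 and EIF3A, which other measures single out below, these genes were chosen after their values were seen, to show how the matches differ.
HNRNPK, exon 4 of 17, chr9:86592663-86592692, minus strand: ctgcagaagatatGGAAGAGgaacaagcat
HNRNPK, exon 7 of 17, chr9:86589430-86589459, minus strand: gaagaaaatcatccctaccttGGAAGAGgt
EIF3A, exon 17 of 22, chr10:120809344-120809373, minus strand: agaacgagaacggcgtagagaGGAAGAGag
EIF5B, exon 8 of 24, chr2:99985895-99985924, plus strand: ggaacaaggagtaccagaaaaGGAAGAGac
DHX35, exon 3 of 22, chr20:37601251-37601280, plus strand: ttgttggtgaaacaggatgtgGGAAGAGca
SRSF3, exon 2 of 6, chr6:36564722-36564751, plus strand: tgcagtccgagagctAGATGGAAGgtgatt
HNRNPH3, exon 5 of 10, chr10:70098958-70098987, plus strand: tgatgacagaatgagAGATGGAAGAGgtaa
PABPC4, exon 2 of 16, chr1:40038109-40038138, minus strand: acctggacaaatctatAGATaacaaggcac
In the first set AGATCG starts at bases 11 to 15 because the peaks were chosen for it. In the second set GGAAG starts at bases 15 to 17, except in HNRNPK exon 4, where it starts just before base 11. PABPC4 holds AGAT and no GGAAG. SRSF3 and HNRNPH3 hold AGAT directly followed by GGAAG.

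All peaks of these genes were then counted. AGAT and its window of bases 11 to 15 were chosen with earlier results of these data known. The contrast with the other windows is therefore no independent finding. A peak middle could be placed in 122 of the 125 T98G exons. The rows of RPL24P4, SRSF10 and THOC2 gave no whole base and were left out. AGAT started at bases 11 to 15 in 37 of the 122 peaks (30.3%, interval 22.9 to 39). In a window 20 bases further downstream it did so in 5 (4.1%), and on the opposite strand in 5 (4.1%). Over all 2463 T98G peaks the share was 25.8% at bases 11 to 15, 3.41% further on and 2.44% on the opposite strand. The share in these genes was therefore close to that of the whole list, and the intervals overlap (24.1 to 27.5 for all peaks). AGATCG stood at bases 11 to 15 in 7 of 122 peaks (5.74%, 2.81 to 11.4) and in 0 in the window further on, for which the interval reaches 3.05%. Over all peaks, 4.59% held it.

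The later adapter bases were counted over 15 start bases, against 5 for AGAT, so their shares are not to be set against each other. GGAAG started at bases 11 to 25 in 38 of 122 peaks (31.1%, 23.6 to 39.8) and in 4 (3.28%) in the window 20 bases further. Over all peaks these shares were 22.8% (21.2 to 24.5) and 3.29%. GGAAGAG was there in 18 peaks (14.8%, 9.54 to 22.1), against 7.92% of all peaks (6.92 to 9.05), and in 0 of the 122 windows further on. The interval for these genes lies above that for all peaks, but both intervals cover counting error only. GGAAGAG was counted after the data were seen, as one of several motifs. Copies such as HNRNPH1 and HNRNPH1P3, which both hold it, are not independent peaks. In the plot by base, AGAT started at base 12 in 15 peaks (12.3%) and at base 11 in 13 (10.7%), whereas GGAAG started at base 16 in 9 and at base 19 in 9. RPL5 pseudogenes, described below, gave 4 of the 9 at base 16 and 3 of the 9 at base 19. GGAAG was in 27 of 100 peaks outside pseudogenes (27%, 19.3 to 36.4) and in 11 of 22 pseudogene peaks (50%, 30.7 to 69.3). Any 5 of the first 12 adapter bases in a row, of which there are 8 overlapping choices, started at bases 11 to 25 in 79 of 122 peaks (64.8%, 55.9 to 72.7), against 16 (13.1%) further on. For all peaks the shares were 58.3% and 12%.

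**Figure D1:**
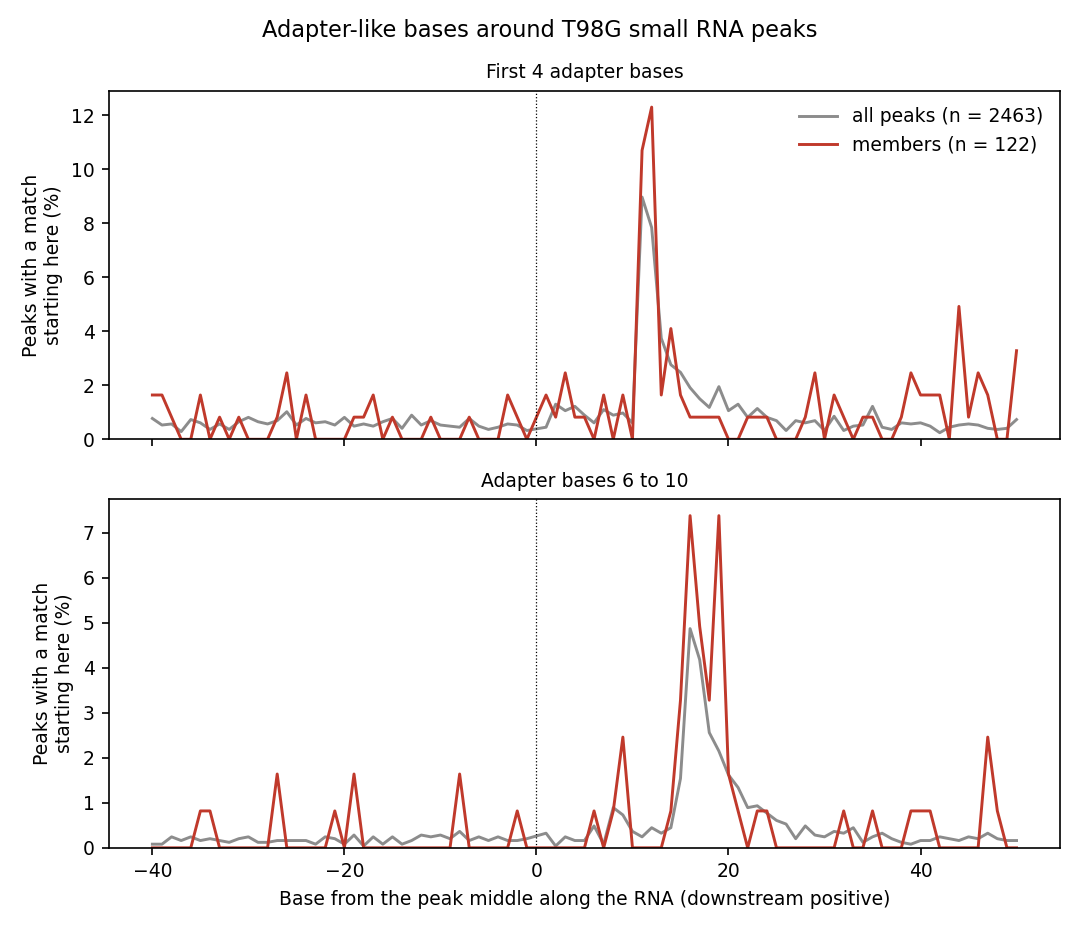
Share of T98G small RNA peaks (%) in which a match starts at each base from 40 bases upstream to 50 bases downstream of the peak middle, for the first 4 adapter bases (top) and adapter bases 6 to 10 (bottom); red is the 122 peaks of these genes, grey all 2463 peaks. Both lines rise at bases 11 and 12 in the top panel and at bases 15 to 19 in the bottom panel, and with 122 peaks a single match moves the red line visibly.

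Across the lists, 113 of the 140 genes were in 1 list, 20 in 2, 6 in 3 and 1, SF3B1, in 4. The 3 small RNA lists together held 110 of them, of which 103 were in that of T98G. Of all 4083 symbols, 2361 were in a small RNA list and 2046 in that of T98G, the longest of the 3. By number of small RNA lists, 88 of these genes were in 1, 19 in 2 and 3 in all 3. Over all symbols these counts were 1794, 469 and 98. The T98G list named 103 of these genes in 125 of its 2573 exons (4.86%, 4.09 to 5.76), K562 15 genes in 16 of 397 (4.03%, 2.5 to 6.45) and U87MG 17 genes in 19 of 669 (2.84%, 1.83 to 4.39). Against the annotation, 80 of the 353 protein-coding genes with these prefixes were listed in T98G (22.7%, 18.6 to 27.3), where 8.49% of all protein-coding genes were listed. In K562 it was 14 of 353 (3.97%, 2.38 to 6.55) against 1.6%, and in U87MG 16 of 353 (4.53%, 2.81 to 7.24) against 2.58%. The share was above the background in each line, with the U87MG interval reaching nearest to it. The background includes genes that the cells may not express, and expression was not matched. The full-length list named 21 of 353 (5.95%, 3.92 to 8.92) against 4.27%, and the siRNA table named 18 of 353 (5.1%, 3.25 to 7.92) against 6.3%, and both intervals include their background. The retained intron list named 1 (0.283%) against 0.169%. Its introns were chosen near EZH2 small RNA exons, so all coding genes are not a like background for it.

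**Figure D2:**
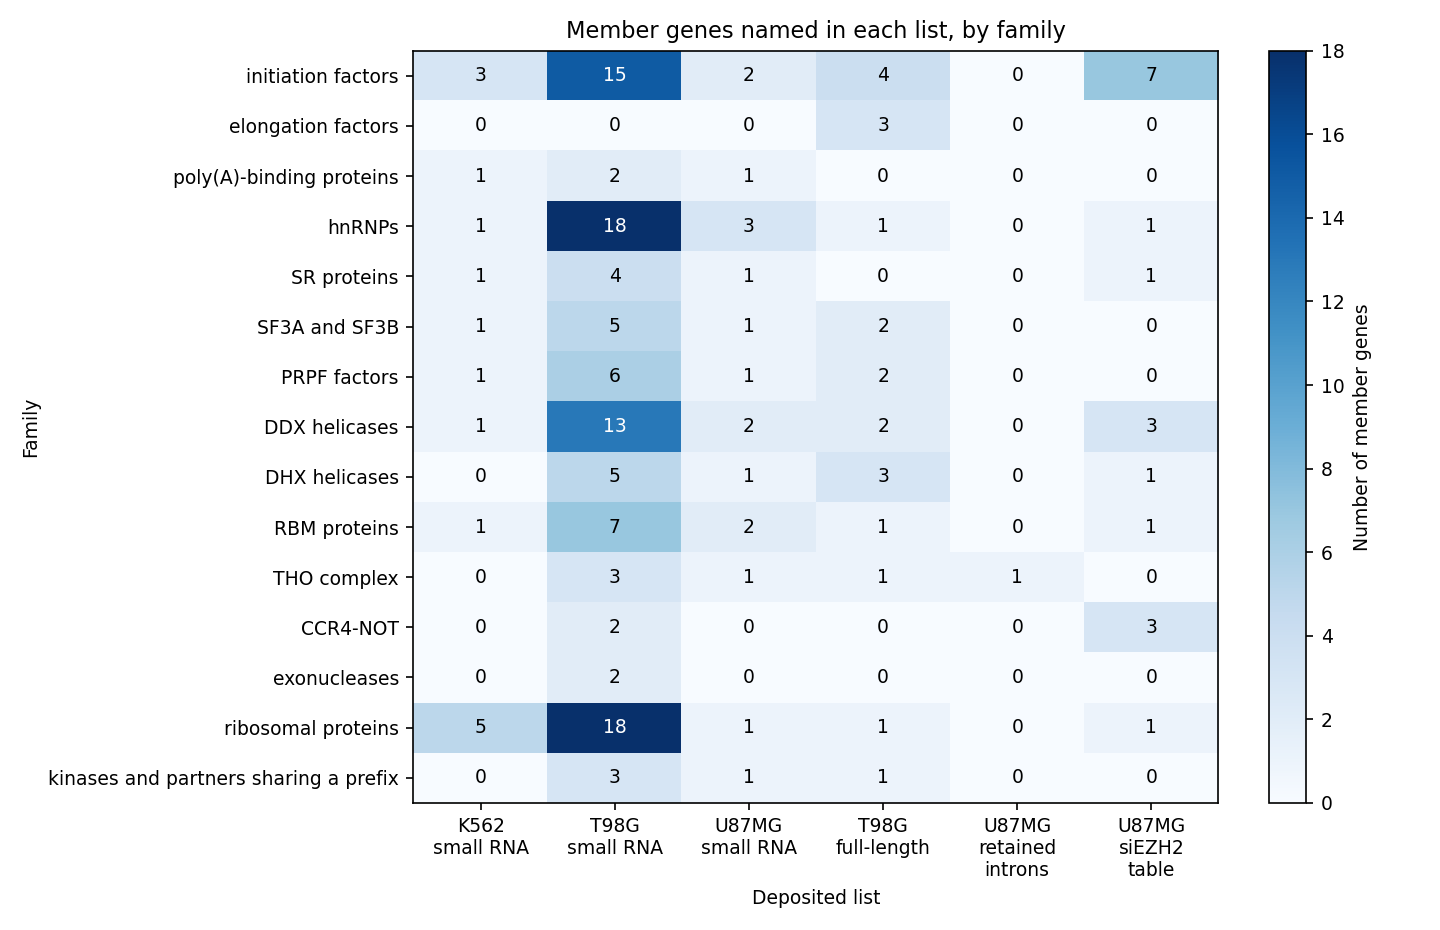
Number of these genes named in each of the 6 lists (columns) by family (rows), pseudogenes included; colour and printed number give the count. The T98G small RNA column holds most of the counts, led by the hnRNPs and ribosomal proteins at 18 each, which include pseudogenes. The row labelled elongation factors holds all genes with the EEF prefix, and these appear in the full-length column alone.

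Initiation factors gave 24 of the 140. T98G small RNA exons were listed for EIF2B4, EIF2S2, EIF3A, EIF3B, EIF3C, EIF3CL, EIF3D, EIF3E, EIF4E2, EIF4G2, EIF4G3, EIF4H and EIF5B, that is 13 of 48 annotated coding genes of the family (27.1%, 16.6 to 41, beside 8.49% of all coding genes), and for the pseudogenes EIF3LP2 and EIF3LP3. K562 listed EIF2S3, EIF3E and EIF5B, and U87MG listed EIF3A and EIF4G2. EIF3A and EIF3B are large subunits of eIF3, the scaffold that joins the small ribosomal subunit to the mRNA. EIF3A had exons 13 and 17 of 22 listed in T98G (chr10:120816388-120816552 and chr10:120809313-120809497, minus strand), and U87MG listed the first of them with identical ends. The exon 17 peak held GGAAGAG at base 17 and the exon 13 peak held no adapter run. EIF3B had exon 10 of 19 in T98G (chr7:2409107-2409317, plus strand), all coding. EIF4G2, an eIF4G relative without the part that binds the cap protein eIF4E, had 3 exon regions in T98G (chr11:10822509-10823155, chr11:10825027-10825750 and chr11:10825834-10826562, minus strand). The middle one was also in U87MG. The first holds SNORD97, a small nucleolar RNA gene, and which RNA gave the reads there was not tested. EIF2B5, EIF4A3 and EIF4G1 were full-length targets only. EIF2B5 and EIF4G1 stand in 1 row of 549721 bp that names 13 genes, so the call cannot be given to either gene.

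Genes with the EEF prefix were absent from all 3 small RNA lists. EEF2, which moves the ribosome along the mRNA, EEF1E1 and the readthrough name EEF1E1-BLOC1S5 were full-length targets in T98G, the last pair in 1 row of 5 names. For comparison, 13 of 48 coding initiation factors had a T98G small RNA exon and 0 of 15 coding genes with the EEF prefix had one. The interval for the latter runs up to 20.4% and includes the 8.49% of all coding genes. The 15 were taken by prefix alone, without removing kinases or other partners, and the difference was not tested. Poly(A)-binding proteins, which coat mRNA tails, were listed for PABPC1 in T98G and for PABPC4 in all 3 lines. The PABPC4 exon was exon 2 of 16, all coding, with the same ends in each line (chr1:40038065-40038258, minus strand). Its T98G peak held AGAT at base 12 and no longer adapter run.

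Among the splicing factors, SF3A1, SF3B1, SF3B2, SF3B3 and SF3B4 of the U2 particle were in the T98G small RNA list. They are 5 of the 9 annotated SF3A and SF3B genes (55.6%, 26.7 to 81.1). PRPF factors had 6 of 13 there (46.2%, 23.2 to 70.9) and SR proteins 4 of 17 (23.5%, 9.56 to 47.3). These intervals overlap, so the families cannot be ranked. SF3B1, which contacts the branch-point region in the U2 particle and is mutated in some blood cancers, had 4 exons in T98G, 2 in U87MG and 1 in K562, and was a full-length target. Exon 8 of 25 (chr2:198273093-198273418, minus strand, partly coding) was listed in all 3 lines with identical ends. Its T98G peak is the AGATCG window printed first, with the match at base 11. Exon 25 (chr2:198256698-198257185) was listed in T98G and U87MG, and its peak held GGAAGAG at base 15. Exon 11 (chr2:198269800-198269901) and exon 13 (chr2:198267673-198267759) were listed in T98G alone, and their peaks held no AGAT at bases 11 to 15, though the exon 13 peak held GGAAG at base 23 and the exon 11 peak GAAGAG at base 22. SF3B3, another SF3B subunit, had exon 14 of 26 listed (chr16:70590082-70590500, plus strand), with GGAAG at base 16, and was a full-length target. SF3A1 was listed by exon 6 of 16 (chr22:30738189-30738339, minus strand).

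Of the PRPF factors, PRPF6, PRPF8, PRPF31, PRPF38A and PRPF38B were among those in the T98G small RNA list and PRPF8 and PRPF19 were in the full-length list. PRPF8, the protein at the catalytic heart of the spliceosome, had 3 exon regions in T98G and 2 in U87MG. The last exon, 43 of 43 (chr17:1553923-1554250, minus strand), was in both lines. Its peak held GATCGG near the end of the window and no AGAT at bases 11 to 15. The other U87MG region spans exon 38 (chr17:1557071-1558274) and holds both AGATCG and GGAAGAG on the RNA strand. T98G alone listed exon 18 (chr17:1579222-1579348) and exon 3 (chr17:1586315-1586995). PRPF6, a bridging protein of the tri-snRNP, was listed by exon 16 of 21 (chr20:62658335-62658511, plus strand), all coding, among others. Its peak starts AGATCG at base 11. PRPF31, of the same particle, was listed by exon 4 of 14 (chr19:54625239-54625322, plus strand).

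SR proteins SRSF3, SRSF6, SRSF10 and SRSF11 had T98G exons, with SRSF3 also in K562 and SRSF11 also in U87MG. SRRM3 was in the siRNA table only. The hnRNPs were HNRNPA3, HNRNPD, HNRNPDL, HNRNPH1, HNRNPH2, HNRNPH3, HNRNPK, HNRNPL, HNRNPUL1 and HNRNPUL2 in T98G, 10 of 25 coding genes (40%, 23.4 to 59.3), with 8 pseudogenes, and HNRNPR in the siRNA table. HNRNPK, which binds C-rich RNA, had exons 4, 7 and 13 of 17 listed in T98G, all coding. Exon 4 (chr9:86592604-86592701, minus strand) had the same ends in all 3 lines. Exons 7 and 13 (chr9:86589432-86589504 and chr9:86586188-86586271) were in T98G alone. GGAAGAG started just before base 11 in exon 4 and GGAAG at base 17 in exon 7, and in exon 13 AGAT started at base 12. HNRNPUL2 had exons 7, 10 and 14 of 14 listed in T98G. HNRNPL, a regulator of alternative splicing, had exon 5 of 13 (chr19:39334648-39334744, minus strand), all coding, and its full-length row carries 3 names.

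Helicases formed a large share. DDX1, DDX11, DDX17, DDX19A, DDX20, DDX23, DDX28, DDX31, DDX41, DDX42, DDX46, DDX52 and DDX60 had T98G exons, 13 of 38 coding DDX genes (34.2%, 21.2 to 50.1). DHX9, DHX16, DHX29, DHX35 and DHX37 did so among 16 DHX genes (31.2%, 14.2 to 55.6). DDX20 was also listed in K562, and DDX17, DDX52 and DHX35 in U87MG. DDX51, DDX56, DHX8, DHX37 and DHX38 were full-length targets. DHX37, a helicase of small ribosomal subunit assembly, is thus in both T98G lists, with exon 19 of 27 in the small RNA list (chr12:125438633-125438757, minus strand). DDX1, part of the tRNA ligase complex, was listed by exon 17 of 26 (chr2:15760332-15760520, plus strand). Neither the DDX1 nor the DHX37 peak held AGAT at bases 11 to 15, but the DHX37 peak held GAAGAG at base 16 and the DDX1 peak AAGAG at base 15.

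RBM proteins RBM5, RBM19, RBM23, RBM27, RBM34, RBM41 and RBM43 were in the T98G small RNA list, RBM23 in K562, RBM5 and RBM39 in U87MG, RBM15B in the full-length list and RBM25 in the siRNA table. RBM23, a splicing regulator related to RBM39, was listed by different exons in K562 (exon 7 of 14, chr14:23374543-23374775, minus strand) and in T98G (exon 8, chr14:23374303-23374455, and a region over exons 5 and 6). The peak in that region lies in an intron of the canonical transcript, and the 20 bases around its middle occur 27 times in the genome, so its reads cannot be placed by sequence alone. T98G small RNA exons were also listed for THOC1, THOC2, THOC5, CNOT2, CNOT8, XRN1 and XRN2, and THOC6 was a full-length target. THOC2 is in U87MG lists too, and CNOT6, CNOT6L and CNOT11 are in the siRNA table. Ribosomal proteins in the small RNA lists were RPL23A, RPL27, RPL5 and RPS19 in K562, RPL7L1 in T98G and U87MG, and RPL35A, RPS3, RPS4Y1 and the readthrough name RPL36A-HNRNPH2 in T98G, the last in the row of HNRNPH2. RPL7A was a full-length target. That is 5 of 86 coding ribosomal protein genes in T98G (5.81%, 2.51 to 12.9), below the 8.49% of all coding genes but with an interval that includes it. The 2 RPL23A rows in K562 overlap SNORD42B in one and SNORD42A and SNORD4B in the other. Such small RNA genes overlapped 2 of 16 rows of these genes in K562 (12.5%) against 3.27% of all K562 rows, 1 of 125 in T98G and 0 of 19 in U87MG. Whether the reads came from the snoRNAs or the mRNA was not tested. The kinases EIF2AK1, EIF2AK3 and EIF2AK4, which phosphorylate eIF2 under stress, had T98G exons, and RPS6KA4 was a full-length target.

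Between lines, shared exons always had identical ends. Of the 19 U87MG exons of these genes, 16 were in the T98G list (84.2%, 62.4 to 94.5), against 65% of all U87MG exons (61.3 to 68.5), and the intervals overlap. Of the 16 K562 exons, 7 were in T98G (43.8%, 23.1 to 66.8), against 45.6% of all, and 3 were in U87MG (18.8%) against 19.9%. Seen from T98G, 16 of 125 exons were in U87MG (12.8%) and 7 of 125 in K562 (5.6%), against 16.9% and 7.03% of all T98G exons. The K562 shares of these genes lay close to those of the whole list, whereas the U87MG share in T98G was higher over 19 exons. That difference was not tested. Joined over the lines, the exons make 137 regions, of which 105 were in T98G alone and 3 (2.19%) in all lines, against 2.58% of all 3022 regions. The 3 are the exons of HNRNPK, PABPC4 and SF3B1. The 13 regions of both glioblastoma lines but not K562 belong to DDX17, DDX52, DHX35, EIF2AK1, EIF3A, EIF4G2, HNRNPH1, HNRNPKP1, PRPF8, RBM5, RPL7L1, SF3B1 and SRSF11. The 4 shared by K562 and T98G alone belong to DDX20, EIF5B, PRPF38A and SRSF3. The T98G rows of these genes ranged from 25 to 4134 bp with a median of 326 bp, against 187 bp for all T98G rows. The 23 rows of pseudogenes had a median of 891 bp, and the 102 other rows one of 179 bp.

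**Figure D3:**
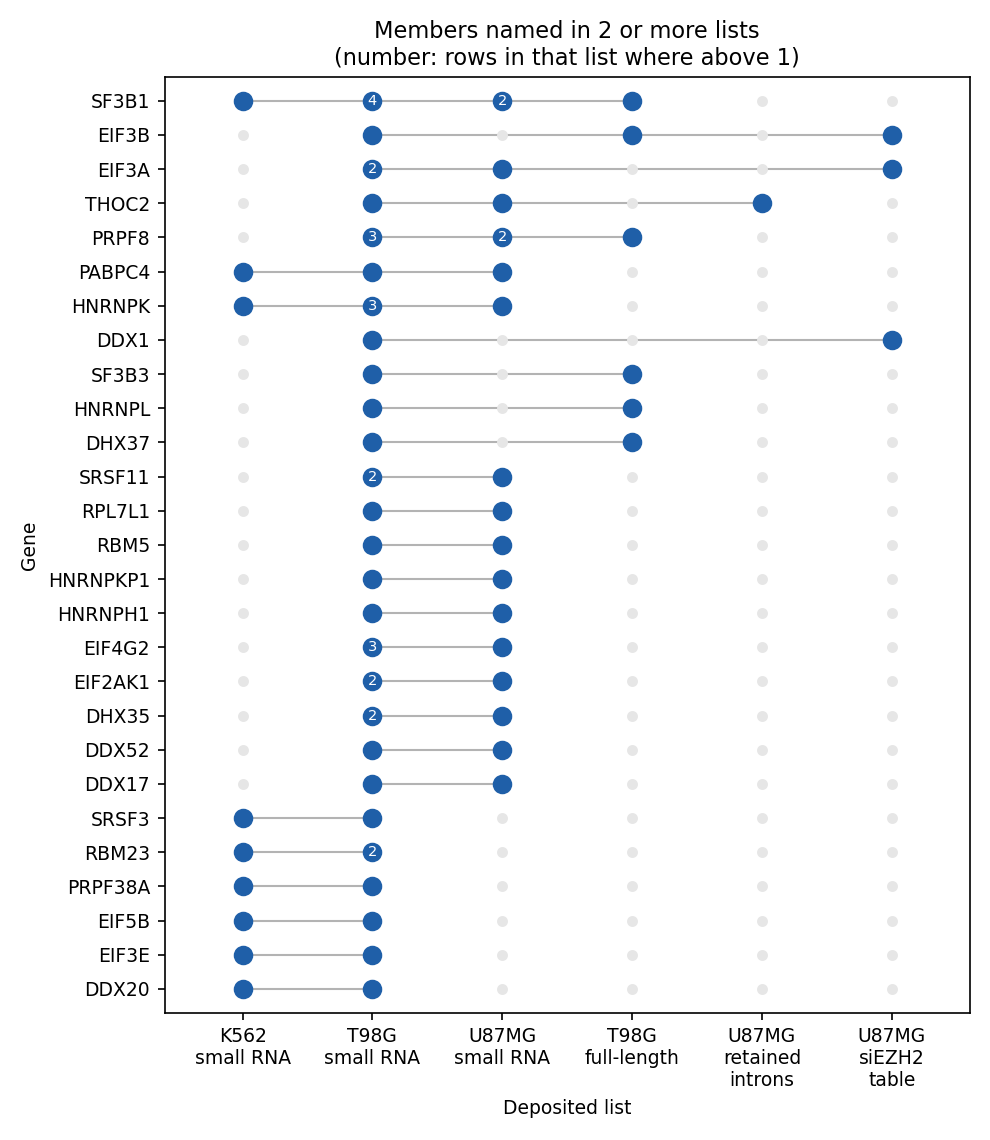
Genes named in at least 2 of the 6 lists; each row is a gene, each column a list, a filled point means that the list names the gene, and a number in a point gives its rows where above 1. SF3B1 is in 4 lists, and EIF3A, EIF3B, THOC2, PRPF8, PABPC4 and HNRNPK are in 3.

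Peak positions are not part of the K562 and U87MG lists, so adapter bases were also searched over whole exons. In T98G the RNA strand held AGATCG in 19 of 125 exons of these genes (15.2%, 9.95 to 22.5) and the opposite strand in 5 (4%). It was in 2 of 19 in U87MG (10.5%; exons of PRPF8 and SF3B1) and 1 of 16 in K562 (6.25%; SF3B1), with 0 on the opposite strand in both lines. Over all listed exons the shares were 10.6%, 10.8% and 7.81%. GGAAGAG was in 32 of 125 T98G exons (25.6%, 18.8 to 33.9), 8 of 19 U87MG exons (42.1%, 23.1 to 63.7) and 3 of 16 K562 exons (18.8%, 6.59 to 43). On the opposite strand it was in 7, 1 and 0. Over all exons the shares were 17.5%, 15.2% and 16.4%. A wider row has more places for a match, and the rows of these genes were wider. Their median width was 326 bp against 187 bp for all rows in T98G. It was 262 against 166 bp in U87MG and 201 against 188 bp in K562. Width was not matched in these shares, and the T98G matches include rows of pseudogenes. The U87MG exons with GGAAGAG belong to DHX35, EIF2AK1, HNRNPH1, HNRNPK, HNRNPKP1, PRPF8, RBM39 and SF3B1, and those in K562 to EIF5B, HNRNPK and RPL23A.

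Pseudogenes are 23 of the 103 genes in the T98G list, and their peaks were nearly all at sequence that occurs elsewhere. The 20 bases around the peak middle occurred more than once in the genome for 19 of 22 pseudogene peaks (86.4%, 66.7 to 95.3), against 21 of 100 other peaks of these genes (21%, 14.2 to 30) and 13.8% of all T98G peaks. Of the 23, 12 are copies of RPL5, a protein of the large ribosomal subunit, and all 12 peaks lie at the same place. Counted along the RPL5 coding sequence they fall at bases 569 to 572, with 7 at base 572, in exon 6 of 8 (chr1:93303013-93303190, plus strand). In 11 of the 12 the 20 bases match the RPL5 mRNA exactly, and RPL5P15 differs at 1 base. These 20 bases occur 13 to 15 times in the genome for the copies with an exact match. Exon 6 of RPL5 itself is in no list, while K562 lists exon 4 (chr1:93300336-93300470). The windows show how far the copies agree.
RPL5, chr1:93303052-93303081, plus strand, not listed: atttaatgcagaagtacATCGGAAGcacat
RPL5P1, chr15:25154374-25154403, minus strand: atttaatgcagaagtacacCGGAAGcacat
RPL5P5, chr1:185196235-185196264, minus strand: atttaatgcagaagtacactGGAAGcacat
RPL5P30, chr11:118431968-118431997, plus strand: atttaatgcagaagtacaccagaagcacat
The copies share their first bases with RPL5 and part within the adapter-like stretch. RPL5 holds ATCGG running into GGAAG there, RPL5P1 CGGAAG and RPL5P5 GGAAG, and RPL5P30 has no run of 5. GGAAG starts at bases 16 to 19 in 8 of the 12 copies, RPL5P1, RPL5P3, RPL5P4, RPL5P5, RPL5P8, RPL5P11, RPL5P17 and RPL5P32, and in none of RPL5P9, RPL5P15, RPL5P26 and RPL5P30. Which copy, or RPL5 itself, gave the reads cannot be told from these 20 bases. The way reads with several equal matches were handled is not given in the sources used here.

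Copies of HNRNPK also shared sequence with it. The HNRNPKP2 peak (chr2:136957977-136958006, minus strand) has the same 30 bases as the HNRNPK exon 4 window printed above, and HNRNPKP3 matches the core of exon 13. HNRNPKP1 lies near the exon 4 place with 1 mismatch in the core, and HNRNPKP4 matches exon 9, which no list names for HNRNPK. HNRNPA3P6 and HNRNPA3P3 match exon 2 of HNRNPA3, HNRNPH1P3 matches HNRNPH1, and HNRNPH2 matches it with 1 mismatch. EIF3LP2 and EIF3LP3 match EIF3L, which no list names, and HNRNPMP1 matches HNRNPM with 1 mismatch. The remaining pseudogenes are RPL24P4 in T98G and RPS23P8 in K562. Among coding genes, EIF3C and EIF3CL are near-identical neighbours on chromosome 16, and their exon 10 windows are the same 30 bases. Their separate listing is uncertain for that reason. Leaving out all pseudogenes, AGAT started at bases 11 to 15 in 30 of 100 peaks, and for the 82 peaks whose 20 bases occur once in the genome it did so in 23 (28%). Of the 100, 78 lie in coding sequence (78%). With pseudogenes included it is 63.9% of the 122 peaks of these genes, beside 69.1% of all 2463 T98G peaks.

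**Figure D4:**
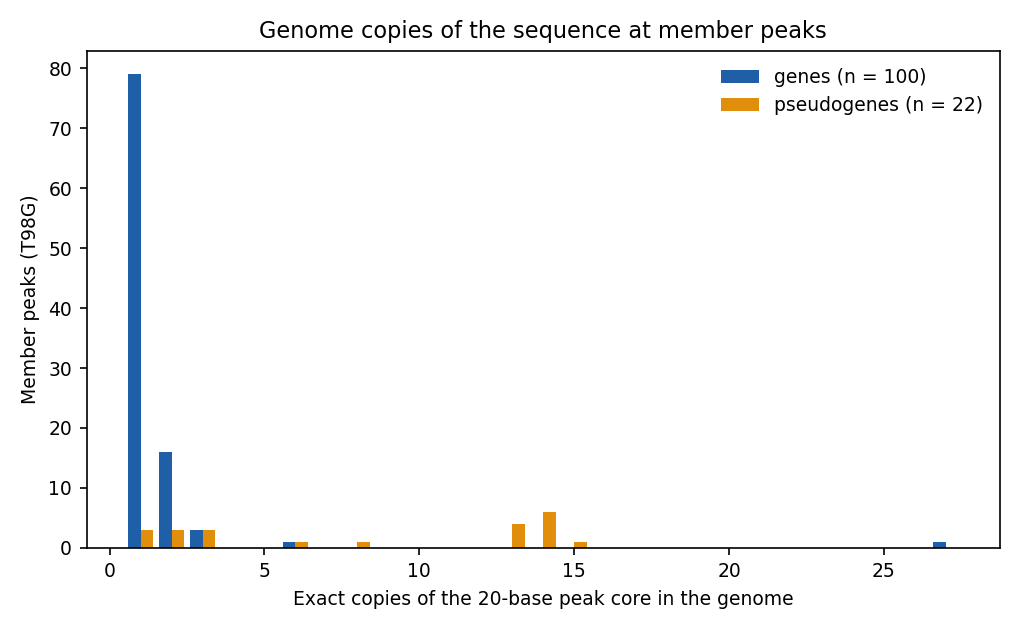
Number of T98G peaks of these genes (vertical axis) by the number of exact genome copies of the 20 bases around the peak middle (horizontal axis); blue bars are 100 peaks of genes, orange bars 22 peaks of pseudogenes. Most blue peaks have a single copy, and the orange peaks gather at 13 to 15 copies, where the RPL5 pseudogenes lie.

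Full-length targets and small RNA targets overlapped in few of these genes. DHX37, EIF3B, HNRNPL, PRPF8, SF3B1 and SF3B3 were in both T98G lists. These 6 are 5.83% of the 103 genes of the small RNA list (2.7 to 12.1), where 10.3% of all its 2046 symbols were full-length targets (9.02 to 11.7). They are 28.6% of the 21 full-length genes (13.8 to 50), where 22.7% of all 926 were in the small RNA list. Both intervals overlap those of the whole lists. Of the 103 genes, 23 are pseudogenes, and the full-length list held 0 pseudogenes of this set. The 6 thus fall among the 80 other genes. In all 6 a small RNA exon overlaps the full-length row on the same strand.

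THOC2, a scaffold of the THO complex, was the single gene with a retained intron. The intron (chrX:122779225-122799494, minus strand, 20270 bp) has a deposited score of 2.44, the fourth highest of 43, and the scale of that score is not stated. It touches the U87MG small RNA exon of THOC2, exon 12 of 39 (chrX:122799493-122799688), by 2 bp. Because the list is named for introns proximal to such exons, this contact is a feature of the list and no finding. T98G listed another region of the gene, over exons 28 and 29 (chrX:122756956-122757822).

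Under siRNA against EZH2 in U87MG, 16 of the 18 listed genes were lower and 2 were higher in the authors' deposited table, which holds genes at an adjusted p of 0.05. Over all 1342 rows of the authors' deposited table, 50.7% were lower and 49.3% higher. The share of these genes that was lower was 88.9% (67.2 to 96.9), above that background. That background is not matched for size. Most of these genes changed by less than 1 in the authors' deposited table, and fewer of the larger changes were lower, as given below. Of the 15 with an absolute log2 fold change of at least 0.5 in the authors' deposited table, 2 were higher and the others lower, where 50.1% of all such rows were lower. At 1 or more, 2 of 3 were higher and CNOT6 was lower, where 26.1% of all such rows were lower. The direction siEZH2 over siGFP is taken from the order of names. EZH2 itself has 0 rows in the table, so the direction could not be checked on the targeted gene. The treatment label of the second siEZH2 library names EZH3, and its title was followed.

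Most of the 18 values lay within 1 of 0. In the authors' deposited table the median log2 fold change was -0.61 for these 18 genes and -0.47 for all rows, and 3 of 18 (16.7%) reached 1 in size against 34.9% of all rows. Among lower rows alone the medians were -0.64 for these genes and -0.74 for all. All 3 CCR4-NOT genes were lower in the authors' deposited table: CNOT6 at -1.69 (0.31 times the siGFP level), CNOT11 at -0.90 and CNOT6L at -0.65. CNOT6 and CNOT6L are deadenylases of the complex, and CNOT11 is one of its other subunits. All 7 initiation factors were lower in the authors' deposited table, with EIF6 at -0.80, EIF2B3 at -0.72, EIF1B at -0.71, EIF3G at -0.53, EIF3B at -0.52, EIF5 at -0.41 and EIF3A at -0.40. EIF6 keeps the large ribosomal subunit from joining too early, and EIF2B3 is a subunit of the exchange factor that recharges eIF2. The 3 DDX helicases were lower in the authors' deposited table, with DDX5 at -0.72, DDX6 at -0.69 and DDX1 at -0.50. DDX5 works in transcription and splicing, and DDX6 in mRNA repression and decay. RBM25 at -0.64, RPS27L at -0.58 and HNRNPR at -0.50 complete the lower genes of the authors' deposited table. The higher genes in the authors' deposited table were DHX40 at 1.01, a helicase (2.01 times the siGFP level), and SRRM3 at 1.15, a splicing factor of neural microexons (2.22 times).

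**Figure D5:**
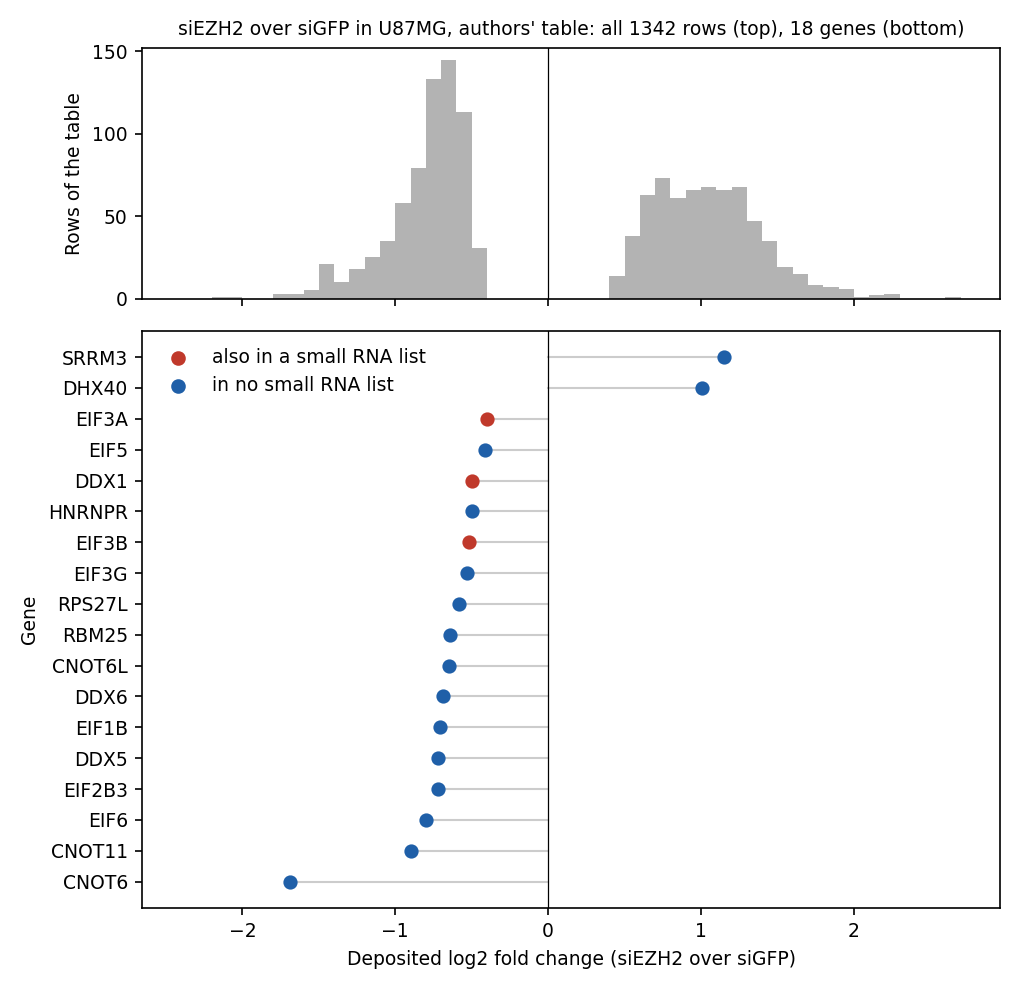
Top: histogram of the log2 fold change (siEZH2 over siGFP, U87MG) of all 1342 rows of the authors' deposited table. Bottom: the 18 genes, each a point from 0 to its deposited value, red where the gene is also in a small RNA list and blue where it is not; 16 points lie left of 0, from -1.69 to -0.40, and 2 right of it.

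The T98G small RNA list shared 3 of its 103 genes of this set with the siRNA table, and 197 of its 2046 symbols in all. Seen from the siRNA table, these are 3 of 18 genes and 197 of 1341 symbols. Neither comparison was tested. EIF3A, EIF3B and DDX1 were the 3 of 18 in a small RNA list, and in the authors' deposited table their log2 fold changes of -0.40, -0.52 and -0.50 are among the 5 smallest in size. Of these, EIF3A alone was in the U87MG list, the line of the siRNA experiment. SF3B1, HNRNPK and PABPC4, listed in all 3 lines, have no row in the authors' deposited table.

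Other genes of the same pathways, 91 in all, whose symbols lack these prefixes, were picked by hand with the authors' calls already known, so their counts support nothing about the families above. T98G small RNA exons were listed for 36 of them (39.6%, beside 8.49% of all coding genes), U87MG exons for 15 (16.5% beside 2.58%) and K562 exons for 7 (7.69% beside 1.6%). The full-length list named 17 (18.7% beside 4.27%) and the retained intron list 2, UPF1 and SMG1, both of nonsense-mediated decay (2.2% beside 0.169%). For the intron list, all coding genes are again not a like background. In the authors' deposited table there were rows for 12 of them (13.2% beside 6.3%), and all 12 were lower, where 50.7% of all rows were lower. That share is not matched for size. Their log2 fold changes in the authors' deposited table ran from -0.97 for ASCC3 to -0.54 for SNRNP70 and SON, with DICER1 and AGO2, of the microRNA pathway, at -0.93 each.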

How the data were processed

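The 26 libraries of small RNA, long RNA, iCLIP and siRNA-treated cells were not analysed themselves: 6 region lists made by the authors were. Per the labels, the authors trimmed with cutadapt, aligned small RNA to hg19 with BWA, counted exons with bedtools, called them with DESeq2 and called peaks with pyicoclip. Long RNA and siRNA reads were aligned with Tophat and iCLIP reads with Bowtie2, and genes were counted with featureCounts, per the labels. CASAVA 1.8 is named in the submitters' processing notes. Thresholds and the exon annotation are not given in the sources used here.

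The siRNA table holds a log2 fold change per gene, deposited by the authors. The intron list holds a score deposited by the authors, of unstated scale. The meaning of the other value columns is not stated. As deposited, they equal the number of joined names in every row or, in T98G, were read here as a signed distance of the peak from the exon middle. The sign was chosen from the sequence: the peak middle was taken as the exon middle minus the distance. Columns with values of single libraries numbered 0, so no test over samples was made, and depth is unknown.

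Exons were compared with GENCODE release 44 on GRCh37 in Python 3.11.15 (numpy 2.4.6, pysam 0.24.0), with overlaps of at least 1 base on the same strand. All 140 symbols matched the annotation. The counting was tested on simulated data. Shares are given with 95% Wilson intervals. The genes, the lists, AGAT and its window were chosen with earlier results of these data known. Genes were described in full where an exon was in all 3 lines, 3 or more exons were in 1 line, an intron was listed, a small RNA gene was also in the siRNA table or full-length list, the siRNA value was among the 5 largest in a direction, or AGATCG stood at bases 11 to 15. Other genes given in detail were chosen after their values were seen. Alternatives changed the motif, window, overlap, row naming and sign of the distance. Some items are counted but not reported here.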

Additional observations from a re-analysis of the deposited data

How the results depend on the processing

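Of 39 alternatives to 18 results, 29 stayed within the range counted as unchanged and 10 moved. The share of T98G peaks with AGAT at bases 11 to 15 (30.3%) became 55.7% with AGA, 10.7% with AGATC and 3.28% when the distance was added to the exon middle. Exons with AGATCG (6.25% in K562, 15.2% in T98G, 10.5% in U87MG) became 50%, 52% and 36.8% with AGATC, and 81.2%, 83.2% and 89.5% with AGAT. Shorter motifs match more often by construction. Genes higher under siEZH2 (11.1%, 2 of 18) became 66.7% (2 of 3) at an absolute log2 fold change of at least 1 in the authors' deposited table. Of all 468 rows of that size in the authors' deposited table, 26.1% were lower and the others higher. Naming rows by their first symbol gave 101 genes in T98G in place of 103, and leaving out pseudogenes and kinases gave 77. The alternatives with peaks whose 20 bases occur once, without pseudogenes, and with GGAAG were chosen after seeing the data. No paired analysis was possible because the lists hold no values per library, and leaving out single libraries could not be run for the same reason. Depth could limit every list and is unknown.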
